A study of Mus musculus with 91 samples.

Results

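Integrins, laminins and nidogens are the receptors and the core proteins of the basement membrane, and their expression was examined here in sorted cells of the fetal mouse gonad. The genes were chosen by symbol alone: integrin α chains (*Itga* genes with *Itgal*, *Itgam*, *Itgav* and *Itgax*), integrin β chains, laminin α, β and γ chains, and both nidogens, taken where an array probe set (a transcript cluster) was assigned to a single gene. The rule found 36 genes of the 19938 on the arrays, of which 16 were integrin α chains, 8 were integrin β chains, 10 were laminin chains and 2 were nidogens.

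Gene expression was measured with Affymetrix arrays in XY and XX gonads on 3 embryonic days, E11.5, E12.5 and E13.5, over which a bipotential gonad becomes a testis or an ovary. Cells carrying a fluorescent reporter were sorted from gonads pooled within sex from 1 or more litters, with 3 arrays in each group, described in the methods as biological replicates. The 4 lineages took 24 groups and 72 arrays, and a further 18 arrays held *αSma-EYFP* cells. The study describes the *αSma-EYFP* population as apparently mixed, at least at the early stage, with supporting cells among interstitial/stromal cells, and names leaky reporter expression as another possibility. XY supporting cells were sorted with *Sry-EGFP* at E11.5 and with *Sox9-ECFP* at E12.5 and E13.5, whereas XX supporting cells were sorted with *Sry-EGFP* at each stage, so that from E12.5 reporter and sex cannot be told apart in this lineage. The *Sry-EGFP* transgene carries the *Sry* regulatory sequence without its open reading frame. XY interstitial and XX stromal cells were sorted with a reporter line of their own. Germ cells were sorted with *Oct4-EGFP*, from gonads with the mesonephros left attached. Endothelial cells were sorted with *Flk1-mCherry* on a CD-1 background. Their dissection removed only the anterior and posterior parts of the mesonephros at E11.5 and all of it later, and by the methods the XY sorts also held Leydig cells. Per the methods, males of most lines were crossed to CD-1 females, and the labels give CD-1 × C57BL/6J embryos for *Sry-EGFP*, *Sox9-ECFP* and *Oct4-EGFP* and CD-1 × mixed embryos for interstitial/stromal cells. *αSma-EYFP* embryos came from homozygous parents on an FVB background by the labels and on FVB/CD-1 by the methods.

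Integrins are transmembrane receptors made of an α and a β chain, and the pairing sets what they bind: α6β1 and α3β1 bind laminin, α4β1 and α9β1 bind fibronectin and VCAM1, α5β1 binds fibronectin, α8β1 binds nephronectin, and the αv integrins bind ligands with the RGD motif and can release active TGF-β. Laminins are trimers of an α, a β and a γ chain that assemble into the sheet on which a basement membrane is built, and nidogens bridge that sheet to type IV collagen. In the fetal testis, Sertoli cells enclose the germ cells in cords, and a basement membrane forms between the cords and the interstitium.

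Promoters are shown for the 4 genes that were higher in XY interstitial cells than in XX stromal cells at both E12.5 and E13.5 and for which a sequence was at hand, since these genes differed together. Each is the stretch of 200 bases before the gene's annotated start, 5′ to 3′ on the strand of the gene, from RefSeq on the GRCm38.p6 assembly, and capitals mark the E-box letters CANNTG.
*Itga4* promoter, chr2:79255226-79255425 (plus strand): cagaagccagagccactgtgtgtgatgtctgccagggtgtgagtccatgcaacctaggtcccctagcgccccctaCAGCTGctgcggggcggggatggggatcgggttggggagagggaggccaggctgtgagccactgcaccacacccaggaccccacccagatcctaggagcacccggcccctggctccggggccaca
*Itga9* promoter, chr9:118711492-118711691 (plus strand): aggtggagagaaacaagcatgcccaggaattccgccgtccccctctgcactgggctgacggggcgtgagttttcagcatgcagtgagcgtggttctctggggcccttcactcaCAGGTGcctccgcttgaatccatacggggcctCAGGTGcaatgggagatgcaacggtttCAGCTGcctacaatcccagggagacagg
*Lama2* promoter, chr10:27616943-27617142 (minus strand): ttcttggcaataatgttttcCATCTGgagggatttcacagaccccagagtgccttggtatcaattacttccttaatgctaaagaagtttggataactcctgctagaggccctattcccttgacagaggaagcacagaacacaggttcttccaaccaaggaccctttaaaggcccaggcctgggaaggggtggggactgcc
*Itgb8* promoter, chr12:119238277-119238476 (minus strand): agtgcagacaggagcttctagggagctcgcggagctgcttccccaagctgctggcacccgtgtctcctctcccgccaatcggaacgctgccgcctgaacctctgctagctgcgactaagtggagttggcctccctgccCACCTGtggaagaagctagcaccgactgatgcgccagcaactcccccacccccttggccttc
The *Itga9* promoter held 3 matches to CANNTG, and those of *Itga4*, *Lama2* and *Itgb8* held 1 each. CANNTG, a palindrome, was present in 58.2% of the 32851 promoters of this length and in 19 of the 27 that belonged to 24 of the 36 genes. The GC box letters GGGCGG, searched on both strands, were in *Itga4* alone among the 4, against 31.0% of all promoters. The letters TATAAA (9.96% of all promoters), AAGGTCA (3.18%) and ACAAAG (13.3%), also searched on both strands, had no match in these 4 windows.

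The values were log2 intensities, normalised by the study's authors, and an intensity is comparable between samples for 1 gene but not between genes. Following the methods, a gene was taken as measured when, in some group, 2 or more of the 3 arrays reached 6. By that rule 32 of the 36 genes were tested and *Itgal*, *Itgam* and *Itgax*, the leukocyte α chains, and *Itgb6*, a β chain of epithelia, were not. *Itgb2*, the β partner of the leukocyte chains, passed through a single group of the 30, E11.5 XY endothelial cells, where its mean was 6.15. Sums of 13 macrophage and leukocyte markers lay between 3579 and 6716 (linear intensity) on those 3 arrays, and all 13 markers were enriched in the endothelial sort, so that its part in the level of *Itgb2* was not tested. *Itga2b*, *Itga7*, *Itga10*, *Itgb4*, *Itgb7*, *Lamb3* and *Lamc3* were tested but varied by less than 1.5-fold across the means of all 30 groups. *Itgb1*, the β chain shared by most laminin and fibronectin receptors, had means far above 6 in every group, between 10.03 in E11.5 XY germ cells and 11.53 in E12.5 XY endothelial cells.

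The sorts were checked against marker lists. Of the 8 Sertoli markers, 7 were higher in supporting cells than in each other lineage, as were 7 of 7 mesenchymal markers in interstitial/stromal cells, 6 of 6 germ cell markers in germ cells and 7 of 7 endothelial markers in endothelial cells. Of the 6 pre-granulosa markers, 1, *Fst*, was higher in supporting cells of both sexes together than in each other lineage. Array medians lay between 6.56 and 6.81. The methods named 1 E11.5 XY endothelial array as an outlier. In a fit that weighted arrays by their scatter, the lowest weights were 0.19 for E11.5 XY endothelial replicate 2 and 0.25 for E11.5 XY supporting replicate 1. Since the arrays read bulk RNA, fewer cells of a type and less RNA per cell cannot be told apart in any value below.

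**Figure D1:**
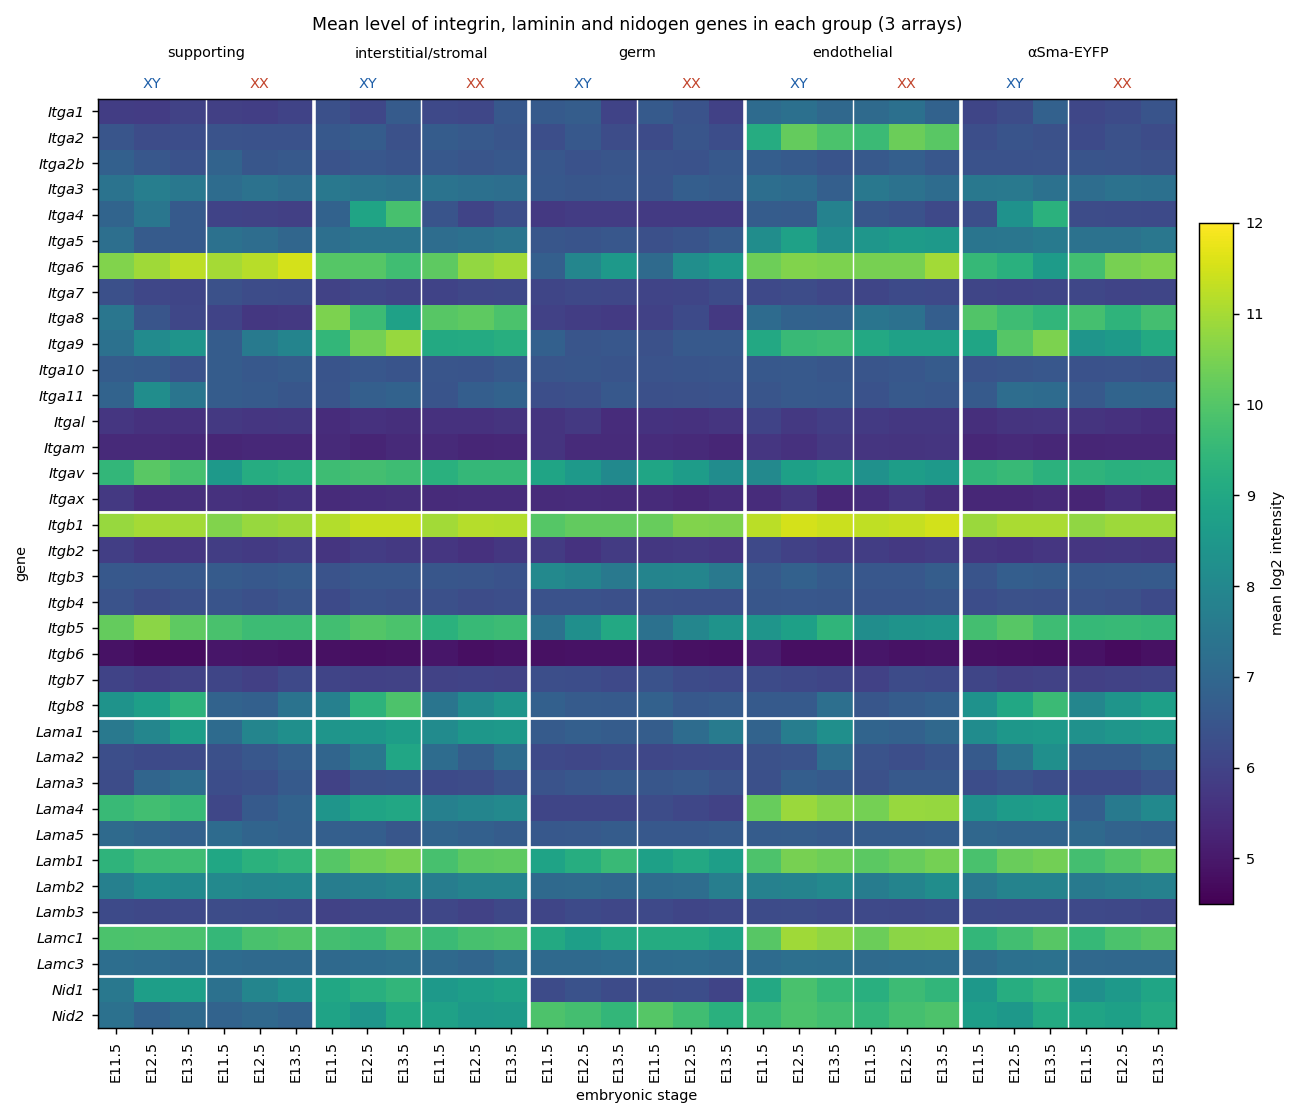
Mean log2 intensity of the 36 genes (rows, ordered by family) in each of the 30 groups (columns, by sort, sex and embryonic stage; 3 arrays each). *Itgb1* lay between 10.03 and 11.53 in every column, *Itga2* and *Lama4* were highest in endothelial columns, *Itga8* in interstitial/stromal columns, and *Itga6* was lowest in germ cell columns; colours compare columns within a row, not rows.

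Each lineage was first compared with the other 3, over both sexes and all stages. A gene was called enriched (or depleted) where limma gave an adjusted p under 0.05 and a fold over 1.5 against each of the other lineages.

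Endothelial cells had the most enriched genes: *Itga1* and *Itga2*, α chains of the collagen receptors, *Itga5*, the α chain of the fibronectin receptor, and the laminin chains *Lama4* and *Lamc1*, which occur together in laminin-411 of vessel walls. These were 5 of 32 genes, against 4.2% of all clusters tested, and no gene was depleted (1.62% of clusters). *Itga2* ran between 8.53 and 10.60 with a median of 9.94 over the 18 endothelial arrays. Its mean was 9.87 ± 0.55 (SD, n = 18, as for each lineage mean below) in endothelial cells and 6.56 in interstitial/stromal cells, the nearest lineage, a difference of 3.31 or 9.92-fold (limma, largest adjusted p of the 3 comparisons 3.14e-36). *Lama4* ran between 10.05 and 10.99 (median 10.69) in endothelial cells, with a mean of 10.64 ± 0.28 against 8.33 in interstitial/stromal cells (4.96-fold, limma, largest adjusted p = 7.67e-36). *Itga5* had a median of 8.48 (7.82 to 8.93) in endothelial cells and was 2.21-fold above interstitial/stromal cells (limma, largest adjusted p = 2.84e-25). *Lamc1*, the γ chain of most laminins, was 1.69-fold above supporting cells, and *Itga1* was 1.65-fold above germ cells. The endothelial sort also held blood cell markers. At E11.5 red blood cell markers summed to between 3353 and 5864 in XX endothelial cells and between 359 and 655 in XX stromal cells. Macrophage and leukocyte markers summed to between 4923 and 5952 and between 1145 and 1433 in the same groups. The part of blood cells in these results was not tested.

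In interstitial/stromal cells *Itga8*, *Lama2* and *Itga4* were enriched, which was 3 of 32 genes against 1.9% of all clusters, and none was depleted (0.0416%). *Itga8*, the α chain of the nephronectin receptor, had a median of 10.02 over 18 arrays (8.57 to 10.65). Its mean was 9.83 ± 0.62 in interstitial/stromal cells and 7.05 in endothelial cells, the nearest lineage (6.88-fold, limma, largest adjusted p = 7.33e-27). *Lama2*, the α chain of laminin-211 of muscle and mesenchyme, was 1.82-fold above endothelial cells (7.39 ± 0.77 in interstitial/stromal cells and 6.52 in endothelial cells). *Itga4* was 1.61-fold above endothelial cells, but its 18 interstitial/stromal values spread between 5.95 and 10.01, and its means in XX stromal cells lay between 6.03 and 6.45. With XX arrays alone, an alternative chosen after seeing the data, *Itga8* remained and *Itga4* and *Lama2* did not, while *Itgb8* and *Lama1* were called. Without the arrays numbered replicate 1, 5 genes were called, *Itga4*, *Itga8*, *Itga9*, *Lama1* and *Lama2*.

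Germ cells had 1 enriched gene, *Itgb3*, of 32 (9.8% of clusters were enriched) and 7 depleted genes (6.01% of clusters): *Itga3*, *Itga4*, *Itga6*, *Itga9*, *Lama4*, *Lamc1* and *Nid1*. *Itgb3*, the β chain that pairs with αv and with the platelet chain αIIb, ran between 7.39 and 8.24 over 18 germ cell arrays (median 7.77). Its mean was 7.80 ± 0.25 in germ cells and 6.64 in endothelial cells, the nearest lineage (2.23-fold, limma, largest adjusted p = 1.45e-29), and no array of another lineage reached the lowest germ cell value. *Itga6*, the laminin-binding α chain, had a median of 8.02 in germ cells (6.42 to 8.80) and a mean of 7.84 ± 0.75, against 10.27 in interstitial/stromal cells, a 5.39-fold lower level (limma, largest adjusted p = 6.51e-31). *Lama4* was 3.93-fold lower (6.10 ± 0.15 in germ cells and 8.07 in supporting cells) and *Nid1* was 3.59-fold lower (6.23 ± 0.18 in germ cells and 8.07 in supporting cells). The 18 supporting cell values of *Lama4* spread between 5.95 and 9.89. Its lowest supporting group mean, 6.08 in E11.5 XX cells, was under its highest germ cell group mean, 6.25. With XX arrays alone *Itga4* and *Lama4* were not called depleted in germ cells, while *Itga5* was. *Nid2* did not follow its paralog *Nid1*: its mean in E11.5 XX germ cells, 10.03, was the highest of the 30 groups.

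Supporting cells had no enriched gene (2.24% of clusters) and 1 depleted gene (1.15% of clusters), *Nid2*, whose 18 values ran between 6.68 and 7.48 with a median of 6.97. Its mean was 7.01 ± 0.23 in supporting cells and 8.71 in interstitial/stromal cells, the nearest lineage, a fold of 3.26 (limma, largest adjusted p = 4.18e-29). *Itga6* reached its highest mean of the 30 groups in E13.5 XX supporting cells, 11.52, and was called enriched in supporting cells with XX arrays alone and also without the arrays numbered replicate 1.

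**Figure D2:**
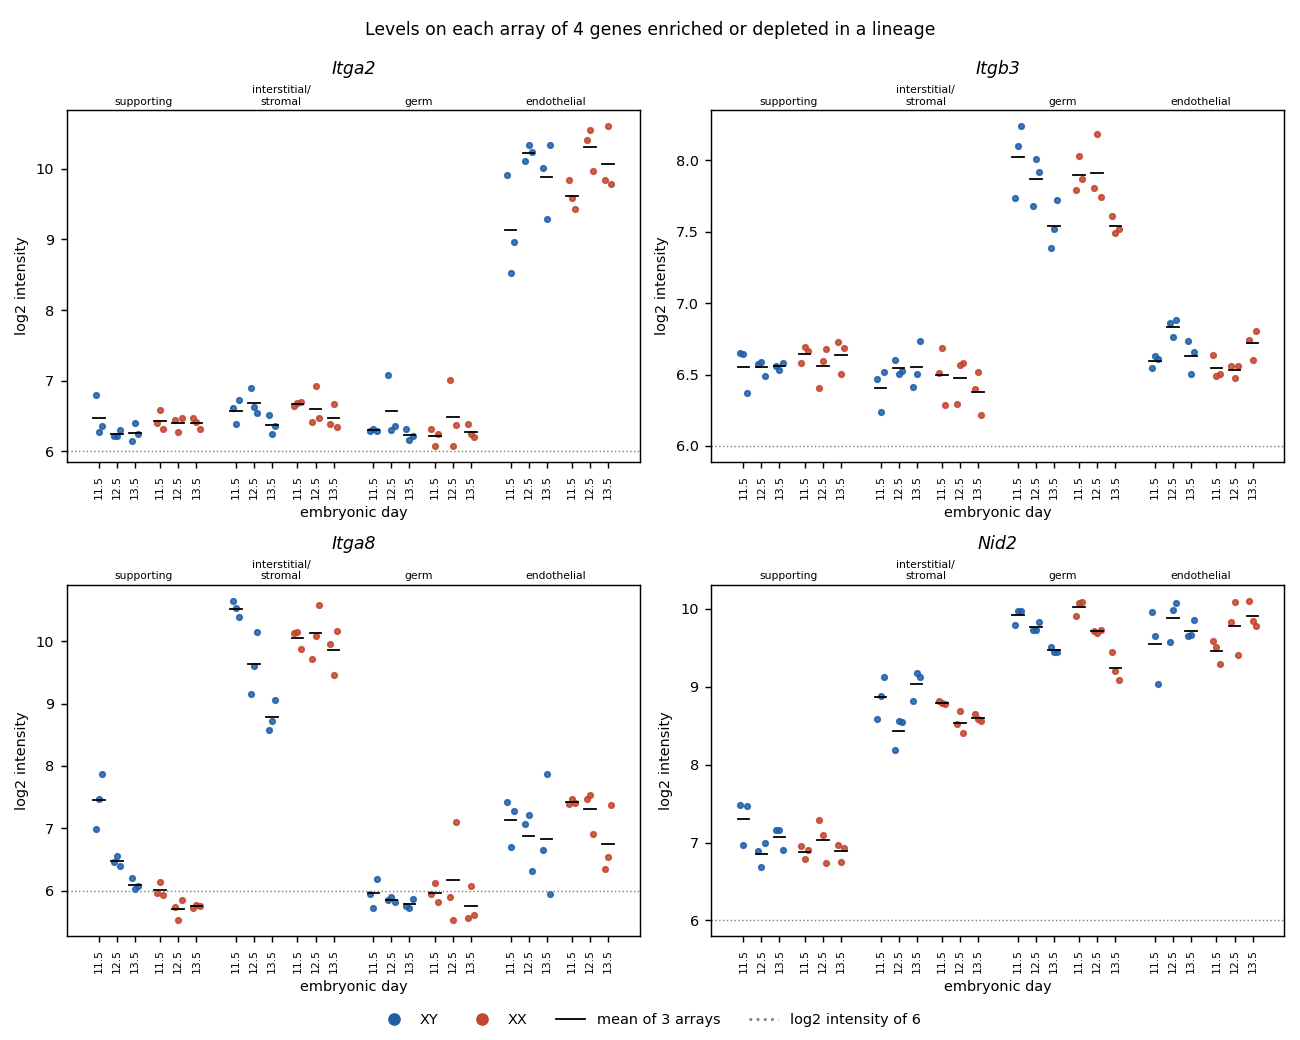
Log2 intensity on each array (points; XY blue, XX red; black lines are means of 3 arrays) of 4 genes by lineage and embryonic day, with a dotted line at 6. *Itga2* lay between 8.53 and 10.60 in endothelial cells, *Itgb3* between 7.39 and 8.24 in germ cells, *Itga8* between 8.57 and 10.65 in interstitial/stromal cells, and *Nid2* between 6.68 and 7.48 in supporting cells.

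XY cells were then compared with XX cells of the same sort and stage, in 15 comparisons over 5 sorts. A gene was called where limma gave an adjusted p under 0.05, adjusted over all clusters tested, and a fold over 1.5. Of the 32 genes tested, 15 were called at least once and 17 were called in no comparison. The share of all clusters called at least once is not given, so that nothing is read from these counts. There were 56 calls in all, 49 higher in XY and 7 lower, where 2.8% of all tests of clusters in these comparisons were called higher and 2.33% lower. A gene is counted once for each stage and sort in which it was called, and *Itga4* and *Lama4* were called 8 times each. The calls are therefore not independent. The XY and XX values did not overlap in any of the 56 calls, nor in 96.2% of the 12949 calls over all clusters, so that nothing is read from it.

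In supporting cells the calls ran in 1 direction. At E11.5, 5 genes were higher in XY (3.65% of all clusters were higher), 9 at E12.5 (9.59%) and 4 at E13.5 (8.6%), and none was lower (2.51%, 7% and 7.45% of clusters). Over the 32 genes the median difference was 0.0756, 0.0692 and 0.027 at the 3 stages, against -0.000777, -0.00162 and -0.0257 over all clusters. The largest difference was in *Lama4*, the laminin α chain described above as enriched in endothelial cells.

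*Lama4* read 9.37, 9.71 and 9.66 in XY supporting cells at E11.5, against 6.24, 5.95 and 6.06 in XX supporting cells. It read 9.58, 9.89 and 9.72 in XY cells at E12.5, against 6.89, 6.22 and 6.78 in XX cells, and 9.56, 9.58 and 9.53 in XY cells at E13.5, against 6.91, 6.62 and 7.02 in XX cells. The XY arrays lay more than 2 log2 units above the XX arrays at each stage. The difference was 3.50 ± 0.159 (SE of the fit) or 11.3-fold at E11.5 (limma, adjusted p = 6.72e-24), 8.56-fold at E12.5 (adjusted p = 5e-23) and 6.53-fold at E13.5 (adjusted p = 1.26e-20). The 7 endothelial markers summed to between 472.4 and 615.3 in XY supporting cells and between 513.7 and 560 in XX supporting cells over the 3 stages, and none of them was called.

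*Itgb8*, the β chain that pairs with αv and binds latent TGF-β, was also higher in XY supporting cells at each stage. Its values were 8.50, 8.21 and 8.32 in XY cells at E11.5, against 7.12, 6.89 and 6.68 in XX cells, and 9.59, 9.05 and 9.36 in XY cells at E13.5, against 7.34, 7.75 and 7.02 in XX cells. The fold was 2.73 at E11.5 (limma, adjusted p = 5.1e-05), 3.79 at E12.5 (2.96e-08) and 3.91 at E13.5 (1.74e-08). Its partner *Itgav* was 1.90-fold higher in XY at E11.5 (limma, adjusted p = 4.29e-05) and 1.94-fold higher at E12.5 (adjusted p = 6.35e-06), with 9.83 to 10.23 in XY cells against 8.94 to 9.47 in XX cells at E12.5. *Itgb5*, another partner of αv, read 10.60, 10.76 and 10.71 in XY cells at E12.5, against 9.58, 9.58 and 9.79 in XX cells (2.06-fold, adjusted p = 2.33e-07). At E13.5 neither *Itgav* nor *Itgb5* was called.

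Of the other α chains, *Itga4*, the α chain of a VCAM1 receptor, was called at all 3 stages, with XX values near 6, the limit for a gene taken as measured. It read 6.45, 7.23 and 7.04 in XY supporting cells at E11.5 against 5.93, 6.12 and 5.96 in XX cells, and 7.43, 7.31 and 7.55 in XY cells at E12.5 against 6.03, 5.83 and 6.04 in XX cells. Where the XX mean lay under 6 the fold is given against 6 and is a lower bound: at least 2.69-fold at E12.5 (limma, adjusted p = 2.51e-08) and at least 1.53-fold at E13.5 (adjusted p = 0.00507). *Itga11*, a collagen receptor chain, was 2.94-fold higher in XY at E12.5 (8.05, 8.61 and 7.84 in XY cells against 6.63, 6.48 and 6.71 in XX cells, adjusted p = 1.24e-15) and 1.86-fold higher at E13.5 (adjusted p = 3.77e-08). *Itga8* read 6.99, 7.48 and 7.88 in XY cells at E11.5, against 5.96, 6.14 and 5.92 in XX cells (2.71-fold, adjusted p = 4.74e-04). At E12.5 it was still called, at least 1.38-fold higher (adjusted p = 0.0473), but not when any 1 of the 6 arrays was left out, where the difference ran between 0.67 and 0.84 on the log2 scale.

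Among basement membrane chains, *Nid1* at E12.5 read 8.45, 8.82 and 8.87 in XY supporting cells, against 7.73, 8.07 and 7.94 in XX cells (1.74-fold, limma, adjusted p = 7.1e-05). *Lama3*, the α chain of epithelial laminin-332, read 6.79, 7.00 and 7.08 in XY cells against 6.37, 6.37 and 6.29 in XX cells (1.53-fold, adjusted p = 5.72e-08), and the log2 difference was 0.55 without XY replicate 3, under the fold limit. Some genes of the Leydig marker list were called in these comparisons. At E11.5 *Hsd17b3* and *Star* were called higher and *Cyp11a1* lower in XY supporting cells, and the 5 markers measured summed to between 455 and 654.7 in XY cells and between 378.8 and 614.1 in XX cells. At E12.5 *Hsd17b3* and *Star* were higher (sums between 2327 and 2581 in XY and between 266.7 and 284.5 in XX), and at E13.5 all 5 were (between 3512 and 3526 in XY and between 262.7 and 287.5 in XX). *Cyp17a1* and *Hsd3b1* were under 6 on every array of XY supporting cells at E11.5 and E12.5. A sum over this list therefore need not follow Leydig cells, and each Leydig sum in the text includes *Hsd17b3* and *Star*. The part of Leydig cells in the results was not tested. The 7 mesenchymal markers summed to between 1801 and 1997 in XY supporting cells at E11.5, against 1553 to 1599 in XX cells. At E12.5 the sexes overlapped, with 944 to 1111 in XY cells and 1018 to 1080 in XX cells. At E13.5 the sums lay between 1019 and 1187 in XY cells, against 911.2 to 973.3 in XX cells. The part of mesenchymal cells in the results, *Itga8* at E11.5 among them, was not tested.

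Interstitial and stromal cells had no gene called by limma at E11.5 (0.161% of clusters were higher in XY and 0.0357% lower; 6 of 32 genes had an unadjusted p under 0.05), 5 higher and 1 lower in XY at E12.5 (2.06% and 2.07%), and 6 higher and 2 lower at E13.5 (3.45% and 2.25%). Median differences over the 32 genes were 0.0476, 0.114 and 0.039 at the 3 stages, against -0.00371, 0.0201 and -0.00171 over all clusters. The genes higher in XY at both later stages were *Itga4*, *Itga9*, *Itgb8*, *Lama2* and *Lama4*.

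*Itga4* read 9.01, 8.79 and 8.84 in XY interstitial cells at E12.5, against 6.06, 6.09 and 5.95 in XX stromal cells. At E13.5 it read 9.65, 9.76 and 10.01 in XY cells, against 6.38, 6.15 and 6.37 in XX cells. The groups were over 2 log2 units apart at both stages, with folds of 7.19 at E12.5 (limma, adjusted p = 2.31e-16) and 11.3 at E13.5 (adjusted p = 1.92e-20). At E11.5 the 6.50, 6.73 and 7.31 of XY cells overlapped the 6.51, 6.16 and 6.67 of XX cells.

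*Itga9*, the α chain of the other VCAM1 and tenascin receptor, read 10.60, 11.11 and 10.83 in XY interstitial cells at E13.5, against 8.97, 8.97 and 9.69 in XX stromal cells (3.11-fold, limma, adjusted p = 3.29e-07), and was 2.59-fold higher in XY at E12.5 (adjusted p = 2.02e-05). *Vcam1*, whose product is bound by both α4β1 and α9β1, read 6.80, 7.36 and 7.23 in XY cells against 5.98, 6.05 and 6.12 in XX cells at E13.5 (2.12-fold, adjusted p = 1.08e-07). Receptor chains and this ligand were thus called in the same sort, which does not show that the same cells expressed them. *Fn1*, encoding fibronectin, another ligand of these receptors, read 10.51, 10.89 and 10.71 in XY cells at E13.5, against 9.86, 9.39 and 9.85 in XX cells. *Itgb1*, the β chain of both receptors, differed by 0.25 on the log2 scale at E13.5 and was not called (adjusted p = 0.154).

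*Lama2* was 1.69-fold higher in XY interstitial cells at E12.5 (limma, adjusted p = 4.03e-04), and at E13.5 it read 8.79, 8.93 and 9.08 in XY cells against 6.98, 7.11 and 7.33 in XX cells, 3.47-fold higher (adjusted p = 1.19e-13). *Itgb8* read 9.75, 10.15 and 9.87 in XY cells at E13.5 against 8.26, 8.35 and 8.66 in XX cells (2.82-fold, adjusted p = 2.78e-05), after 2.40-fold at E12.5 (adjusted p = 6.09e-04). In both genes the lowest XY array was above the highest XX array. *Lama4* was 1.93-fold higher in XY at E12.5 (adjusted p = 1.57e-05) and 1.98-fold at E13.5 (adjusted p = 5.55e-06). *Nid1* was 1.54-fold higher at E13.5 (9.11, 9.78 and 9.40 in XY cells against 8.73, 8.74 and 8.95 in XX cells, adjusted p = 0.00611), but without XY replicate 2 the log2 difference was 0.45 and the call was lost.

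*Itga6* and *Itga8* ran the other way. *Itga6* read 10.53, 8.84 and 9.69 in XY interstitial cells at E13.5, against 10.78, 11.00 and 11.12 in XX stromal cells, 2.43-fold lower in XY (limma, adjusted p = 1.9e-05). It was 1.70-fold lower at E12.5 (adjusted p = 0.0229), a call lost in 5 of the 6 fits without 1 array, with log2 differences between -0.71 and -0.79 in those 5. *Itga8* read 8.57, 8.72 and 9.06 in XY cells at E13.5 against 9.96, 9.46 and 10.17 in XX cells, 2.12-fold lower (adjusted p = 0.0124), and the call was lost without XX replicate 1 or 3 or XY replicate 1 or 2, with log2 differences between -0.93 and -1.05.

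Markers of supporting cells moved with sex in these sorts. The 8 Sertoli markers summed to between 6942 and 8155 in XY interstitial cells at E12.5, against 1329 to 1469 in XX stromal cells, and at E13.5 to 7575, 3117 and 5162 on the 3 XY arrays, against 1371 to 1634 in XX cells. The order of the XY arrays at E13.5 was the same as that of *Itga6*, highest in replicate 1 and lowest in replicate 2. Leydig and pre-granulosa sums ran in the reverse order on these arrays, and with 3 arrays nothing is read from an order. The 6 pre-granulosa markers summed to between 981.3 and 1117 in XY interstitial cells and between 3698 and 5198 in XX stromal cells at E13.5. Leydig markers summed to between 5219 and 6271 in XY cells and between 256.4 and 282.2 in XX cells at E13.5. The 7 mesenchymal markers summed to between 8188 and 9270 in XY cells and between 4874 and 6024 in XX cells at that stage, and the 5 smooth muscle markers to between 1645 and 1812 in XY and between 746.7 and 1197 in XX. The part of these cell types in the results was not tested.

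**Figure D3:**
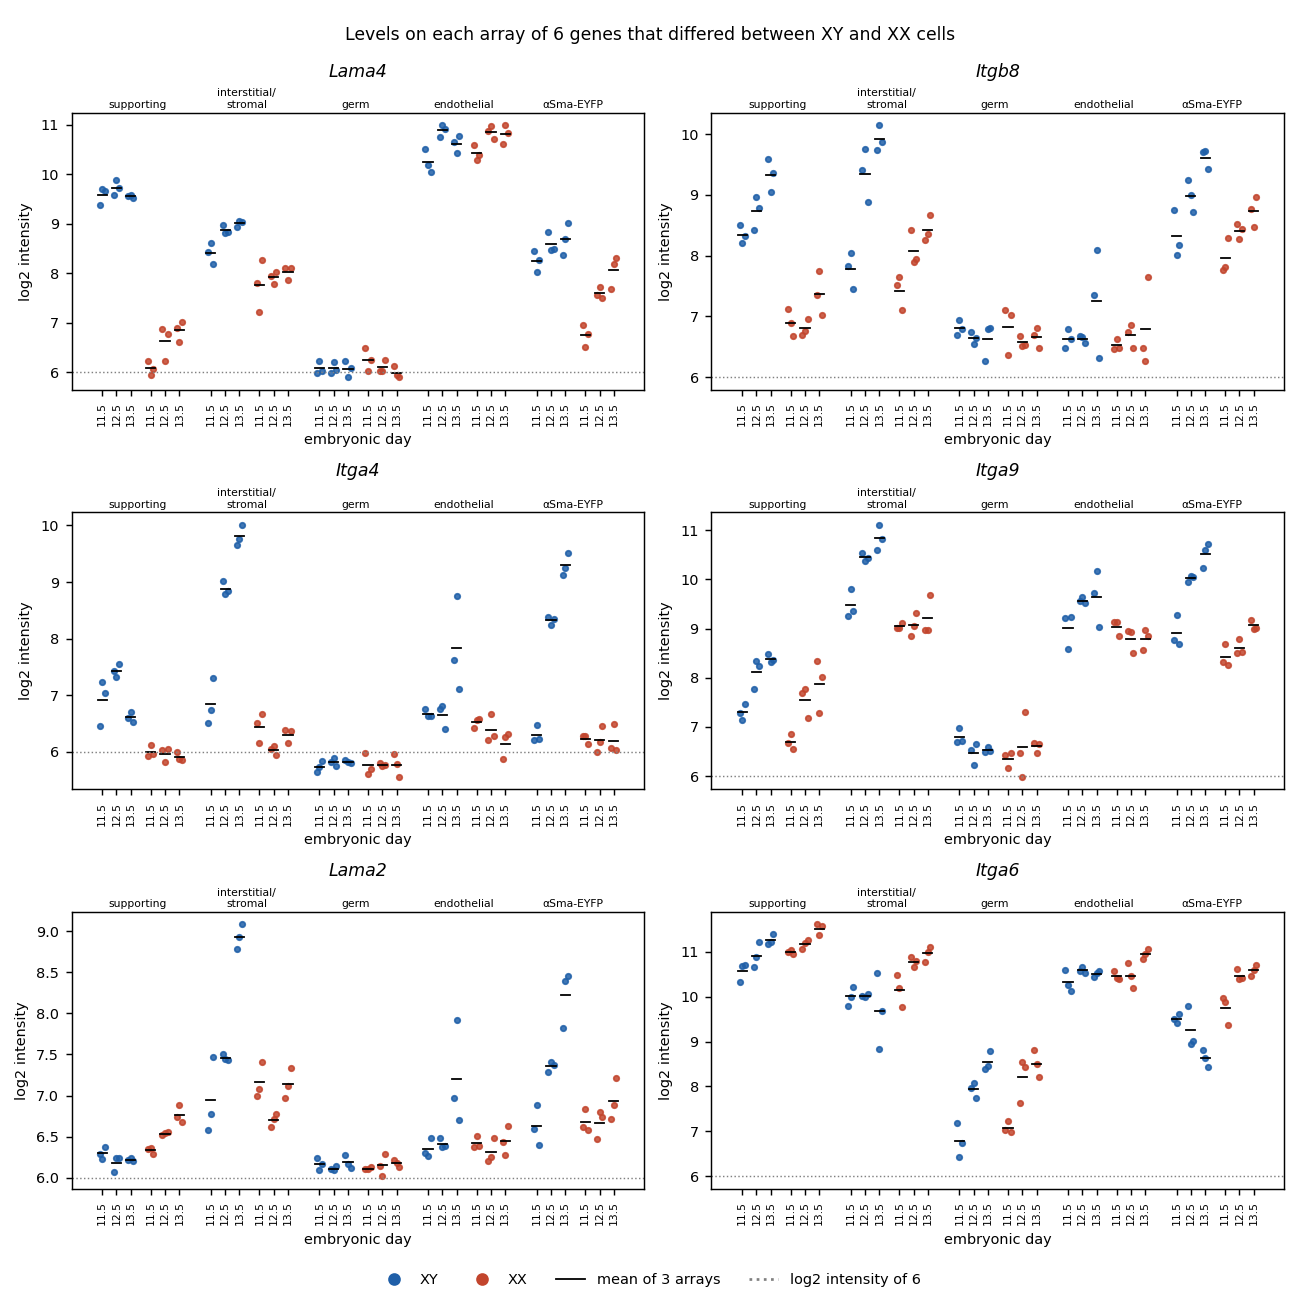
Log2 intensity on each array (points; XY blue, XX red; black lines are means of 3 arrays) of 6 genes by sort and embryonic day, with a dotted line at 6. *Lama4* in supporting cells was near 9.6 in XY at each day and near 6 to 7 in XX, and *Itga4* reached 9.65 to 10.01 in E13.5 XY interstitial cells while XX stromal cells stayed between 6.15 and 6.38.

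A test of the difference between lineages was run at E13.5 for the 9 genes called in supporting or interstitial/stromal cells, as the XY minus XX difference in supporting cells minus that in interstitial/stromal cells. By this test 7 of the 9 genes passed (limma, adjusted p under 0.05, with no fold limit). Of all clusters, 6.56% passed in the positive direction and 6.75% in the negative, and nothing is read from the count against them, since the 9 genes were chosen by their calls on the same arrays. The sex difference was larger in supporting cells for *Lama4*, by 1.72 (adjusted p = 4.8e-08), and for *Itga11*, by 0.90 (adjusted p = 1.13e-04). It was larger in interstitial/stromal cells for *Itga4*, with a difference of -2.80 (adjusted p = 3.78e-11), for *Lama2*, with -2.35 (adjusted p = 3.04e-12), and for *Itga9*, with -1.13 (adjusted p = 0.013). *Lama2* had opposite signs in the 2 lineages, at 1.80 in interstitial/stromal cells and at -0.55 in supporting cells, where its 1.47-fold difference was under the fold limit. *Itga6* and *Itga8*, lower in XY interstitial cells, also passed (1.02 and 1.43, adjusted p = 0.0189 and 0.0156). *Itgb8* and *Nid1* did not pass (0.47, adjusted p = 0.498, and -0.15, adjusted p = 0.771), which does not show that their sex differences were equal. At E13.5 XY and XX supporting cells were sorted with different reporters, so that this test cannot tell a difference between lineages from one of reporter.

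Germ cells had no gene called by limma at E11.5 or E12.5, where 1 and 4 of 32 genes had an unadjusted p under 0.05. Of all clusters, 0.0654% were called in each direction at E11.5, and 0.892% were higher and 1.77% lower in XY at E12.5. At E13.5 XX germ cells enter meiosis and XY germ cells do not. At that stage 2 of 32 genes were higher in XY (5.72% of clusters) and 2 were lower (6.07%). Both counts are near those shares, so that nothing is read from them. All but 1 of these genes were laminin chains. *Lamb1*, the most widespread laminin β chain, read 9.47, 9.56 and 9.70 in XY germ cells against 8.63, 8.80 and 8.66 in XX germ cells (1.84-fold, limma, adjusted p = 5.06e-08). *Lama1*, the α chain of laminin-111 of the early embryo, read 6.79, 6.79 and 6.49 in XY cells against 7.67, 7.66 and 7.58 in XX cells, 1.92-fold lower in XY (adjusted p = 3.75e-07). *Lamb2*, another β chain, read 6.91, 7.12 and 7.01 in XY cells against 7.55, 7.73 and 7.84 in XX cells, 1.61-fold lower (adjusted p = 1.27e-05). *Lamb1* and *Lamb2* were thus called in opposite directions, and *Lamb3* was called in no comparison.

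*Itgb5* read 9.24, 8.99 and 8.83 in XY germ cells at E13.5 against 8.45, 8.20 and 8.38 in XX germ cells (1.60-fold, limma, adjusted p = 7.64e-04), and the log2 difference was 0.57 without XY replicate 1, under the fold limit. Sertoli markers summed to between 1253 and 1707 in XY germ cells and between 1033 and 1241 in XX germ cells at E13.5. The 6 markers of mesonephric epithelium, 3 of which were enriched in germ cells, summed to between 1715 and 1812 in XY and between 946.2 and 1023 in XX. Their part in the result was not tested.

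Endothelial cells had no gene called by limma at E11.5 (0.107% of clusters were higher in XY and 0.482% lower; 4 of 32 genes had an unadjusted p under 0.05), 2 higher in XY at E12.5 (1.44%) and 5 higher at E13.5 (2.68%), and none lower at the later stages (0.416% and 0.85%). *Lama1* was called at both stages, with 7.83, 7.75 and 7.50 in XY endothelial cells at E12.5 against 6.87, 6.57 and 7.09 in XX cells (1.80-fold, limma, adjusted p = 3.28e-05). At E13.5 it read 8.31, 8.42 and 7.95 in XY cells against 6.92, 6.82 and 7.41 in XX cells (2.26-fold, adjusted p = 4.63e-09). *Itga4* read 7.62, 8.75 and 7.11 in XY cells at E13.5 against 5.86, 6.26 and 6.31 in XX cells (3.22-fold, adjusted p = 4.68e-09). In both genes the XY and XX arrays were apart, by the least in *Lama1* between XY replicate 3 and XX replicate 3.

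*Itgb5* was 1.98-fold higher in XY endothelial cells at E13.5 (9.34, 9.64 and 9.24 in XY against 8.13, 8.19 and 8.94 in XX, limma, adjusted p = 5.96e-06). *Itga9* read 9.72, 10.17 and 9.03 in XY cells against 8.57, 8.97 and 8.85 in XX cells (1.80-fold, adjusted p = 0.0179). *Lama2* read 6.97, 7.92 and 6.70 in XY cells against 6.44, 6.28 and 6.63 in XX cells (1.68-fold, adjusted p = 5.97e-04). For *Itga4*, *Itga9* and *Lama2* the highest value was that of XY replicate 2, and without this array 3 genes were called, since *Itga9* and *Lama2* had log2 differences of 0.58 and 0.39. The *Itga9* call at E12.5 (1.71-fold, adjusted p = 0.0467) was lost in 5 of 6 fits without 1 array, with log2 differences between 0.63 and 0.84.

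That array also stood apart in some of its markers. The 7 mesenchymal markers summed to 2163, 4427 and 1623 on the XY endothelial arrays at E13.5, against 1716, 1432 and 2177 on the XX arrays, and the 7 endothelial markers summed to 9917, 7477 and 10258 on the XY arrays, against 10891, 12884 and 11235 on the XX arrays. Leydig markers summed to 8850, 6946 and 7754 on the XY endothelial arrays at E13.5, lowest on XY replicate 2, against 233.8 to 268.3 in XX cells. At E12.5 they summed to between 1495 and 1618 in XY cells, against 224.6 to 259.4 in XX cells. Red blood cell markers summed to 7076, 13275 and 8985 on the XY arrays at E13.5, again highest on XY replicate 2, against 4028, 5478 and 3886 on the XX arrays. The 8 Sertoli markers summed to between 1392 and 1777 in XY cells and between 846.5 and 1109 in XX cells at E13.5, the 6 germ cell markers to between 946.6 and 1222 in XY and between 574.9 and 770.9 in XX, and the 13 macrophage and leukocyte markers to between 4450 and 5777 in XY and between 3396 and 4564 in XX, where the sexes overlapped. The part of these cells in the result was not tested. *Itga4*, *Itga9* and *Lama2* were also among the genes higher in XY interstitial cells, where Leydig markers summed to between 5219 and 6271.

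*αSma-EYFP* cells, fitted with all 90 arrays, had 1 gene higher in XY at E11.5 (0.214% of clusters; 0.0178% were lower), and 5 higher and 1 lower at E12.5 (1.72% and 1.83%) and again at E13.5 (1.61% and 2.19%). At E11.5 the gene was *Lama4*, with 8.46, 8.02 and 8.28 in XY cells against 6.96, 6.52 and 6.77 in XX cells (2.83-fold, limma, adjusted p = 1.34e-09), where Sertoli markers summed to between 3175 and 4471 in XY and between 1415 and 1514 in XX. *Itga4* read 9.13, 9.25 and 9.51 in XY cells at E13.5 against 6.07, 6.49 and 6.03 in XX cells (8.57-fold, adjusted p = 2.72e-21), after 4.35-fold at E12.5 (adjusted p = 1.21e-13). Both genes had XY and XX arrays over 1 log2 unit apart.

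*Itga9* was 2.74-fold (limma, adjusted p = 1.05e-06) and *Lama2* 2.46-fold (adjusted p = 2.93e-09) higher in XY *αSma-EYFP* cells at E13.5. *Itga6* read 8.82, 8.62 and 8.43 in XY cells against 10.47, 10.60 and 10.70 in XX cells, 3.90-fold lower in XY (adjusted p = 1.25e-10), and pre-granulosa markers summed to between 1198 and 1234 in XY and between 3498 and 3777 in XX at that stage. All 5 Leydig markers measured were also called higher in XY at E13.5, with sums between 1592 and 2359 in XY and between 272 and 312.3 in XX, as Sertoli markers summed to between 2337 and 2520 in XY and between 1269 and 1367 in XX, and mesenchymal markers to between 6939 and 8064 in XY and between 5568 and 6142 in XX. Their part in these results was not tested. *Itgb8* (1.84-fold, adjusted p = 0.0211) and *Lama4* (1.56-fold, adjusted p = 0.00838) completed the E13.5 list. Their calls were lost in some fits without 1 array, *Itgb8* without XX replicate 1 or 2 or XY replicate 1 or 2 (log2 differences between 0.75 and 0.90) and *Lama4* without XX replicate 1 (0.45) or XY replicate 3 (0.48).

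**Figure D4:**
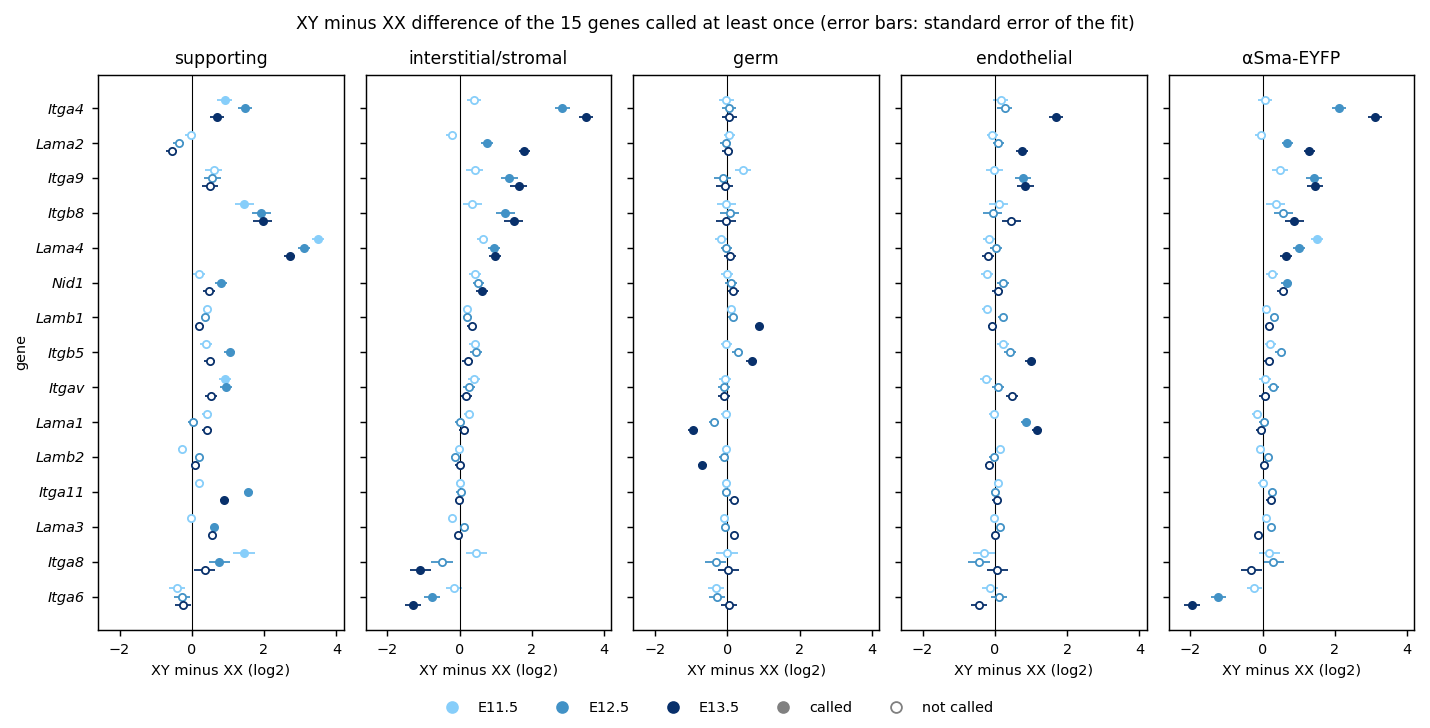
XY minus XX log2 difference (x axis) of the 15 genes called at least once (y axis), by sort, with 1 point a stage (darker blue is later), filled where called, and bars for the standard error of the fit. *Lama4* lay furthest to the right in supporting cells and *Itga4* in interstitial/stromal and *αSma-EYFP* cells, while *Itga6* lay left of 0 in the last 2 at E12.5 and E13.5.

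Changes with stage were read as E13.5 against E11.5 within each lineage and sex. In XY supporting cells 6 genes were higher at E13.5 (7.68% of clusters) and 2 lower (4.21%), and in XX supporting cells 5 were higher (4.75%) and none was lower (2.45%). *Nid1*, *Lama1* and *Itga9* were higher in both sexes. *Nid1* was near 7.5 at E11.5 in XY cells, with 7.20, 7.43 and 7.84, then 8.45, 8.82 and 8.87 at E12.5 and 8.73, 8.70 and 8.81 at E13.5 (2.39-fold, limma, adjusted p = 1.38e-08), and in XX cells it read 7.24, 7.26 and 7.40, then 7.73, 8.07 and 7.94, then 8.27, 8.18 and 8.38 (1.97-fold, adjusted p = 6.35e-06). *Lama1* was higher at E13.5 by 2.20-fold in XY cells (adjusted p = 3.86e-09) and 2.17-fold higher in XX cells (adjusted p = 9.22e-09). *Itga9* was 2.12-fold higher at E13.5 in XY cells (adjusted p = 3.15e-04) and 2.28-fold higher in XX cells (adjusted p = 1.39e-04).

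*Itga8* was lower at E13.5 in XY supporting cells, with 6.99, 7.48 and 7.88 at E11.5, 6.45, 6.56 and 6.39 at E12.5 and 6.20, 6.02 and 6.07 at E13.5 (2.55-fold, limma, adjusted p = 5.2e-04), and *Itga5* was 1.54-fold lower (adjusted p = 3.46e-04), a call lost without E11.5 replicate 1 (-0.58). The change of reporter between E11.5 and E12.5 cannot be told apart from the stage in XY supporting cells. Mesenchymal markers summed to between 1801 and 1997 in XY supporting cells at E11.5 and between 1019 and 1187 at E13.5. The part of mesenchymal cells in these changes was not tested.

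In XY interstitial cells 5 genes were higher at E13.5 (2.77% of clusters) and 1 lower (2.12%). *Itga4* read 6.50, 6.73 and 7.31 at E11.5, 9.01, 8.79 and 8.84 at E12.5 and 9.65, 9.76 and 10.01 at E13.5 (7.79-fold, limma, adjusted p = 2.75e-17), *Itgb8* was 4.43-fold higher at E13.5 (adjusted p = 9.77e-09) and *Lama2* 3.97-fold higher (adjusted p = 5.11e-15). *Itga8* read 10.65, 10.54 and 10.38 at E11.5, 9.15, 9.60 and 10.15 at E12.5 and 8.57, 8.72 and 9.06 at E13.5 (3.34-fold lower, adjusted p = 2.62e-05). Most of the *Itga4* and *Itgb8* change lay before E12.5 and most of the *Lama2* change after it. Markers of several cell types moved with the stage in XY interstitial cells: Leydig markers summed to between 5219 and 6271 at E13.5 and between 300.4 and 407.3 at E11.5, smooth muscle markers to between 1645 and 1812 at E13.5 and between 645.2 and 802.8 at E11.5, and mesenchymal markers to between 8188 and 9270 at E13.5 and between 5667 and 6167 at E11.5. Sertoli markers overlapped, between 3117 and 7575 at E13.5 and between 1808 and 4414 at E11.5. Their part in the result was not tested. In XX stromal cells *Itgb8* (2.00-fold, adjusted p = 0.0103) and *Itga6* (1.76-fold, adjusted p = 0.0134) were higher at E13.5, 2 genes against 1.88% of clusters, and none was lower (2.12%). No gene was called there without E11.5 replicate 3 or without E13.5 replicate 3. Pre-granulosa markers summed to between 3698 and 5198 in XX stromal cells at E13.5 and between 1668 and 2421 at E11.5, and the highest group mean of *Itga6* was in XX supporting cells, as given above. Their part in the result was not tested.

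In germ cells of both sexes *Itga6* and *Itgb5* were called higher and *Itgav* and *Itga1* lower at E13.5 than at E11.5. In XY germ cells 3 genes were higher at E13.5 (5.08% of clusters) and 2 lower (4.54%), and in XX germ cells 4 were higher (7.94%) and 3 lower (6.95%). *Itga6* read 7.18, 6.42 and 6.75 in XY germ cells at E11.5, 7.96, 8.08 and 7.75 at E12.5 and 8.38, 8.44 and 8.80 at E13.5 (3.38-fold, limma, adjusted p = 9.13e-09), and was 2.68-fold higher at E13.5 in XX germ cells (adjusted p = 8.76e-07). *Itgb5* was 3.32-fold higher at E13.5 in XY cells (adjusted p = 4.4e-13) and 2.05-fold higher in XX cells (adjusted p = 4.31e-07), while its partner *Itgav* was 1.75-fold lower in XY cells (adjusted p = 2.18e-04) and 1.72-fold lower in XX cells (adjusted p = 2.15e-04).

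*Itga1* was also lower in germ cells of both sexes at E13.5, 1.54-fold in XY (limma, adjusted p = 0.0015), where the call was lost without E11.5 replicate 2 or 3 or E13.5 replicate 1 (log2 differences between -0.53 and -0.56), and at least 1.53-fold in XX (adjusted p = 3.59e-04). *Lama1* was 1.91-fold higher at E13.5 in XX germ cells (adjusted p = 3.2e-07), with 6.86, 6.58 and 6.64 at E11.5, 6.96, 7.12 and 7.36 at E12.5 and 7.67, 7.66 and 7.58 at E13.5, while XY germ cells stayed between 6.49 and 6.89 on their 9 arrays. *Nid2* was 1.71-fold lower in XX germ cells at E13.5 (adjusted p = 1.22e-04), with 9.91, 10.08 and 10.09 at E11.5, 9.71, 9.69 and 9.73 at E12.5 and 9.45, 9.20 and 9.09 at E13.5.

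In XY endothelial cells 7 genes were higher at E13.5 (5.08% of clusters) and none was lower (1.77%), and in XX endothelial cells no gene was called (1.3% and 1.17%; 10 of 32 genes had an unadjusted p under 0.05). The difference between the sexes in these changes was not tested. *Lama1* read 7.02, 6.77 and 6.87 at E11.5, 7.83, 7.75 and 7.50 at E12.5 and 8.31, 8.42 and 7.95 at E13.5 in XY cells (2.53-fold, limma, adjusted p = 7.31e-11), and *Itga4* (2.22-fold, adjusted p = 2.26e-05) and *Itgb5* (2.00-fold, adjusted p = 3.2e-06) were the next largest. *Itga2*, the chain most enriched in this lineage, was called at 1.68-fold (adjusted p = 0.0179) with overlapping groups, 10.01, 9.29 and 10.34 at E13.5 and 9.91, 8.53 and 8.96 at E11.5, and the call was lost without E11.5 replicate 2 or 3 or E13.5 replicate 1 or 3 (log2 differences between 0.44 and 0.68). *Lama2* (1.80-fold, adjusted p = 5.63e-05) was not called without E13.5 replicate 2 (0.48). The change in dissection after E11.5 and the rise of Leydig markers, which summed to between 6946 and 8850 at E13.5 and between 225.2 and 326.9 at E11.5, cannot be told apart from the stage.

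Other genes of the pathway were read from lists of basement membrane partners, integrin ligands, integrin adhesion proteins and other laminin receptors, 50 genes in all of which 46 were tested. In supporting cells 3 were higher and 1 lower in XY at E11.5, 10 higher and 5 lower at E12.5 and 6 higher and 5 lower at E13.5, with the share of all clusters as given above for each comparison. *Fbln2*, a fibulin that binds nidogen and laminin, averaged 10.18 ± 0.07 in XY supporting cells and 7.38 ± 0.05 in XX supporting cells at E12.5 (SD, n = 3 arrays, as for the genes below; 6.97-fold, limma, adjusted p = 1.26e-24). *Npnt*, encoding nephronectin, averaged 7.03 ± 0.14 in XY and 8.71 ± 0.39 in XX at E13.5 (3.21-fold lower in XY, adjusted p = 5.37e-12). *Parvb*, encoding the adaptor β-parvin that binds ILK, averaged 6.69 ± 0.16 in XY and 8.83 ± 0.37 in XX at E12.5 (4.41-fold lower, adjusted p = 4.63e-15).

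In interstitial/stromal cells no gene of the lists was called at E11.5, 5 were higher and 2 lower in XY at E12.5 and 6 higher and 2 lower at E13.5. *Smoc2*, encoding a calcium-binding basement membrane protein, averaged 8.36 ± 0.39 in XY and 6.44 ± 0.12 in XX at E13.5 (3.78-fold, limma, adjusted p = 1.11e-14), and *Col4a1*, encoding a type IV collagen chain, averaged 9.23 ± 0.34 in XY and 8.15 ± 0.01 in XX (2.12-fold, adjusted p = 1.59e-07). In germ cells none was called at E11.5, 2 were higher and 3 lower at E12.5 and 4 higher and 4 lower at E13.5. *Npnt* was enriched in germ cells (1.90-fold above the nearest lineage, largest adjusted p = 9.93e-18) and at E13.5 read 7.54, 7.41 and 7.33 in XY germ cells against 8.66, 9.05 and 9.13 in XX germ cells (2.87-fold lower in XY, adjusted p = 3.54e-10). *Itga8*, the α chain of its receptor, was highest in interstitial/stromal cells.

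In endothelial cells none of the lists' genes was called at E11.5, 4 were higher in XY and none lower at E12.5, and 4 were higher and 3 lower at E13.5. *Tnc*, encoding the α9β1 ligand tenascin-C, averaged 7.20 ± 0.55 in XY and 6.23 ± 0.15 in XX at E13.5 (1.95-fold, limma, adjusted p = 2.64e-05), and *Smoc1* was 2.86-fold higher in XY (adjusted p = 7.3e-08). In *αSma-EYFP* cells none was called at E11.5, 3 were higher and 2 lower at E12.5 and 5 higher and 3 lower at E13.5, with *Vcam1* 1.99-fold higher in XY at E13.5 (adjusted p = 2.6e-05). Between lineages, 6 of the 46 were enriched in endothelial cells and 1 depleted, among them the type IV collagen genes *Col4a1* (2.06-fold) and *Col4a2* (2.09-fold), and 8 were depleted in germ cells and 1 enriched. In supporting cells 3 were enriched and 1 depleted, and in interstitial/stromal cells 3 were enriched.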

How the data were processed

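Sorted cells were hybridised to Affymetrix Mouse Gene 1.0 ST arrays, 90 of which were used (an array of whole newborn mouse was not). Per the labels and methods, the authors scanned with GCOS and normalised in Partek (RMA, quantile normalisation, median polish, probe GC and sequence adjustment). The deposited values were log2 intensities. Of 35557 clusters, the 21789 with a single gene were used. Those at 6 or above on 2 or more arrays of some group were tested, 16820 over the 72 arrays of 4 lineages and 16859 over all 90, with limma 3.58.1 (R 4.3.3; 1 mean a group, 48 and 60 residual degrees of freedom) and Benjamini-Hochberg adjustment over all clusters. The methods' limits (p of 0.05, fold of 1.5) were kept with the adjusted p; the methods name no test. The script was tested on simulated data. No 2 arrays correlated above 0.9943. The number of arrays limits the precision. The name of the reporter of interstitial/stromal cells is not reported here.

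The genes and lists were chosen with earlier results of these data known. Values are given for genes enriched or depleted in a lineage (up to 4), called between sexes (up to 4 each way) or between E13.5 and E11.5 (up to 3 each way), their known partners, and up to 3 listed genes each way; others called were added after their values were seen. Alternatives were a second quantile normalisation, no filter, unadjusted p-values, a replicate block, array weights, a fit over 90 arrays, leaving out each array, and XX arrays alone for lineages.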

Additional observations from a re-analysis of the deposited data

Results flagged for a closer look

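At E13.5 the XY minus XX difference of 7 genes differed between supporting and interstitial/stromal cells, by a test of the difference itself in the limma fit (log2 differences, supporting minus interstitial/stromal, with both sexes and lineages on 3 arrays a group). The value was -2.80 for *Itga4*, -2.35 for *Lama2* and -1.13 for *Itga9*, whose sex differences were the larger in interstitial/stromal cells. It was 1.72 for *Lama4* and 0.90 for *Itga11*, whose sex differences were the larger in supporting cells. For *Itga6* it was 1.02 and for *Itga8* 1.43, genes called lower in XY than in XX in interstitial/stromal cells and not called in supporting cells at that stage. The *Itga8* call in interstitial/stromal cells was lost in 4 refits. The genes tested were chosen by their calls on the same arrays. XY and XX supporting cells were sorted with different reporters, so a difference between lineages cannot be told apart from one of reporter.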

How the results depend on the processing

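The log2 differences of the 96 calls kept their direction in all 1099 refits and lost the call in 63. Of the 337 recounts of called genes, 317 lay within 1.5 times the value given. XY against XX, interstitial/stromal cells at E11.5 had 1 call, against 0, by unadjusted p and with array weights, and 0 to 1 without 1 array. Endothelial cells had 0 to 1 without 1 array at E11.5 (1 without XY replicate 1), 1, against 2, at E12.5 with no filter and with the replicate block, and 1 to 2 without 1 array, and at E13.5 3 to 7, against 5, without 1 array (3 without XY replicate 2). E13.5 against E11.5, XX stromal cells had 0 to 2 calls without 1 array, against 2, and XX endothelial cells had 1, against 0, by unadjusted p. Genes enriched in supporting cells numbered 1, against 0, with XX arrays alone and 0 to 1 without 1 replicate number. Those enriched in interstitial/stromal cells numbered 3 to 5, against 3. The cause was not tested.

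Replicate numbers are shared by all groups, but no source says that they pair samples. Deviations from group means correlated at 0.0177 on average between arrays of the same number and at -0.00864 between arrays of different numbers, and in 1 of 12 pairs of XY and XX groups all 3 correlations passed 0.1, so the numbers were not used as pairs. With the replicate block the other counts of calls were within 1.5 times those given. No gene had a further single-gene cluster, so that alternative gave no value. Values near 6, as in *Itga4*, *Itga8* and *Lama4* of XX supporting cells, lie near the limit for a gene taken as measured and their folds may be understated.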
